A study of Mus musculus with 9 samples.

Results

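NF-kB is a family of transcription factors held in check by inhibitor proteins, and the 10 genes described here are its 5 DNA-binding subunits (Nfkb1, Nfkb2, Rel, Rela and Relb), its 3 cytoplasmic inhibitors (Nfkbia, Nfkbib and Nfkbie) and 2 atypical nuclear relatives of the inhibitors (Nfkbiz and Bcl3). They were chosen with earlier results of these data known and were taken by symbol from a table of 55418 genes. All 10 were found, and all 10 passed the filter on low counts among the 15914 genes tested. With the hairpin shEya3_KD1, 8 of the 10 messenger RNAs fell, Bcl3, Nfkbia and Nfkbie by the most, where 26.2% of all genes tested fell and 50.3% changed in either direction. With the hairpin shEya3_KD2, the 3 cytoplasmic inhibitors fell by less and no subunit passed the test, where 22.3% of all genes fell and 45.3% changed.

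The subunits bind DNA as pairs. Rela, Rel and Relb carry activation domains, whereas Nfkb1 and Nfkb2 are made as long precursors that are cut to the DNA-binding forms p50 and p52. In resting cells the inhibitors keep the pairs in the cytoplasm. When a kinase complex marks the inhibitors for destruction the pairs enter the nucleus, where Nfkbia, Nfkb2, Relb and other genes of the pathway are themselves known targets, so that the pathway both feeds and restrains itself.

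All 9 libraries came from 66cl4, a mouse mammary carcinoma line of the triple negative type, carrying a hairpin vector and selected with puromycin. The groups were SCR (a scrambled hairpin, 3 libraries), shEya3_KD1 (3 libraries) and shEya3_KD2 (3 libraries), both of the latter named for Eya3, a transcriptional co-activator. The labels call the libraries biological replicates without saying whether a line was 1 clone or a pool, or whether replicates were separate cultures, and the p-values therefore measure only how far these libraries differ, which may be technical. Within either comparison an effect of the hairpin's own sequence cannot be told apart from an effect of less Eya3.

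The level of a gene is given as CPM, its counts scaled to a common library size. Eya3 had a mean of 72.9 CPM in SCR (SD 5.56, n = 3; later values follow the same form), at 31.7% of that mean in shEya3_KD1 and at 51.5% in shEya3_KD2. Library totals ranged from 27758862 to 52691960 counts. Of 8 epithelial markers, Krt8 was at 679 CPM in SCR, 1315 CPM in shEya3_KD1 and 792 CPM in shEya3_KD2. In the same order of groups, Krt18 was at 0.0277, 0.955 and 2.62 CPM, and Krt14 at 1.32, 0.561 and 11.8 CPM. Among the 6 that could be tested, 4 were called higher and 1 lower in shEya3_KD1, with 4 higher and 0 lower in shEya3_KD2. Epcam had no counts in any library and Cdh1 was at 0.0678 CPM in SCR. The defining epithelial surface markers were thus absent or nearly so. Of 13 macrophage markers, 5 could be tested. Their summed level was 75.7 to 78.7 CPM in SCR, 34.8 to 39.3 CPM in shEya3_KD1 and 32.9 to 39.5 CPM in shEya3_KD2. C1qa and C1qc were at 0 in every library. Tyrobp and Fcgr1 were at 0 in SCR and shEya3_KD2, with 15 and 4 counts in shEya3_KD1. Most of the sum in SCR was Lyz2 and Cd14 (38.6 and 27.7 CPM). Of the 5 tested, 4 fell and 1 rose with shEya3_KD1, and 3 fell and 2 rose with shEya3_KD2. Cd68 went from 9.64 CPM in SCR to 3.54 and 12.1 CPM in shEya3_KD1 and shEya3_KD2, and C1qb from 0.0277 to 0.267 and 0.372 CPM. The summed lymphocyte markers lay between 0.472 and 1.40 CPM over the libraries, and the summed endothelial markers between 2.11 and 4.35 CPM. The endothelial sum hid opposite changes, since of 3 tested markers 2 rose and 1 fell with shEya3_KD1. Cdh5 was at 3.72 CPM in SCR and 0.264 CPM in shEya3_KD1, and Emcn at 0.0132 and 2.24 CPM. Fibroblast markers summed to 28.8 to 35.8 CPM in SCR, 53.7 to 58.7 CPM in shEya3_KD1 and 30.7 to 44.8 CPM in shEya3_KD2, led by Pdgfra. The part of any of these cell types in the results below was not tested. In bulk samples fewer cells of a type and less RNA per cell cannot be told apart.

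NF-kB subunits recognise the kappa-B element, whose consensus was searched as GGG, a purine, any pair of bases, a pair of pyrimidines and CC. RefSeq promoter windows (GRCm38.p6, 250 bases before to 50 after a start) were at hand for 7 of the 10 genes, in 9 windows because Nfkb2 has 3 starts. At least 1 match on either strand, with overlapping matches taken as 1 site, was found for 5 of these 7 genes. Of all 27025 genes with windows 9.55% hold a match, and of all 32851 windows 8.46%. Each site is shown because it lies in the promoter of a gene whose messenger RNA is described below, and a match is a description of letters and not of binding. Each line is written 5′ to 3′ on the strand of the gene with the match in capitals.
Nfkbia, chr12:55492657-55492686, minus strand: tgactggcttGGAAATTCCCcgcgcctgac
Nfkbie, chr17:45555584-45555613, plus strand: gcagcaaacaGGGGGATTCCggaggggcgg
Bcl3, chr7:19822734-19822763, minus strand: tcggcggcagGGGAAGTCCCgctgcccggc
Rel, chr11:23771042-23771070, minus strand: gtaagcagcGGGAAATCCCCccccctccc
Nfkb2, first start, chr19:46304689-46304717, plus strand: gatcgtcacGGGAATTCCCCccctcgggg
Nfkb2, first start, chr19:46304716-46304745, plus strand: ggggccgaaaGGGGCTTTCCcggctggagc
Nfkb2, second start, chr19:46305449-46305478, plus strand: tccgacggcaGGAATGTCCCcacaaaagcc
Nfkb2, shared by the other two starts, chr19:46305695-46305724, plus strand: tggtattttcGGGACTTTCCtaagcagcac

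In Nfkbia the match began 29 bases before the start, in Nfkbie 106 bases before it and in Rel 92 bases before it. In Bcl3 it began at base 3 of the transcribed part. No match to these letters was found in the windows of Rela and Nfkbib. The 250 bases before the start are printed for Nfkbia, which fell with both hairpins, and for Rela, its main binding partner, where the window holds no capitals because it has no match.
Nfkbia, chr12:55492648-55492897, minus strand: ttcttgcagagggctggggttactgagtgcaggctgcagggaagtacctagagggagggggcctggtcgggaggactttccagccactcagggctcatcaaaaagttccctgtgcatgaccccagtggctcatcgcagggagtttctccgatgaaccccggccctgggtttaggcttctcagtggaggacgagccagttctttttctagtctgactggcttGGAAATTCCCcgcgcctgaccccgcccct
Rela, chr19:5637291-5637540, plus strand: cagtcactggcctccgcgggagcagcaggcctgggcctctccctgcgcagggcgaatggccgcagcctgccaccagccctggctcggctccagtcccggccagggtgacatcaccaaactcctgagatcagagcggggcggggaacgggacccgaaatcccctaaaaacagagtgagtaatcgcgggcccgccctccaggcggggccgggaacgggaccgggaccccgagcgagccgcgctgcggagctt

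The first question was how much of each messenger RNA the control cells held. Levels of different genes were compared per length, as CPM per kilobase of annotated exon. In SCR, Nfkbia was the most abundant of the 10 at 114 ± 4.53 per kilobase, followed by Nfkb2 at 88.9 ± 5.31 and Rela at 33.3 ± 1.72. Nfkbib stood at 23.3 ± 0.745, Relb at 11.8 ± 0.986 and Nfkbie at 11.7 ± 0.478. Nfkb1 followed at 8.49 ± 0.252, Bcl3 at 3.64 ± 0.277, Rel at 3.15 ± 0.102 and Nfkbiz at 2.51 ± 0.329. Relb and Nfkbie overlapped in their libraries and cannot be ordered, while each other pair of neighbours was separate in all 3 libraries. With the longest transcript as the length, Nfkb1 moved up to 24.7 ± 0.733 per kilobase, level with Nfkbib, because its annotated exons together (12061 bases) are much longer than its longest transcript (4149 bases).

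The order differed in both hairpin groups. Nfkb2 stood above Nfkbia in shEya3_KD1 (48.8 ± 4.67 against 24.7 ± 2.66 per kilobase) and in shEya3_KD2 (84.8 ± 5.69 against 63.7 ± 2.38 per kilobase). In shEya3_KD1 the libraries of Nfkbia and Rela overlapped (Rela 20.1 ± 1.90 per kilobase), and Bcl3 was last of the 10 at 0.465 ± 0.0587 per kilobase. Nfkb2 made up 61.0% ± 0.416 of the summed per-length level of the 5 subunits in SCR, 58.7% ± 0.395 in shEya3_KD1 and 58.5% ± 0.307 in shEya3_KD2. The subunit messenger RNA thus remained mostly Nfkb2 in every group.

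**Figure D1:**
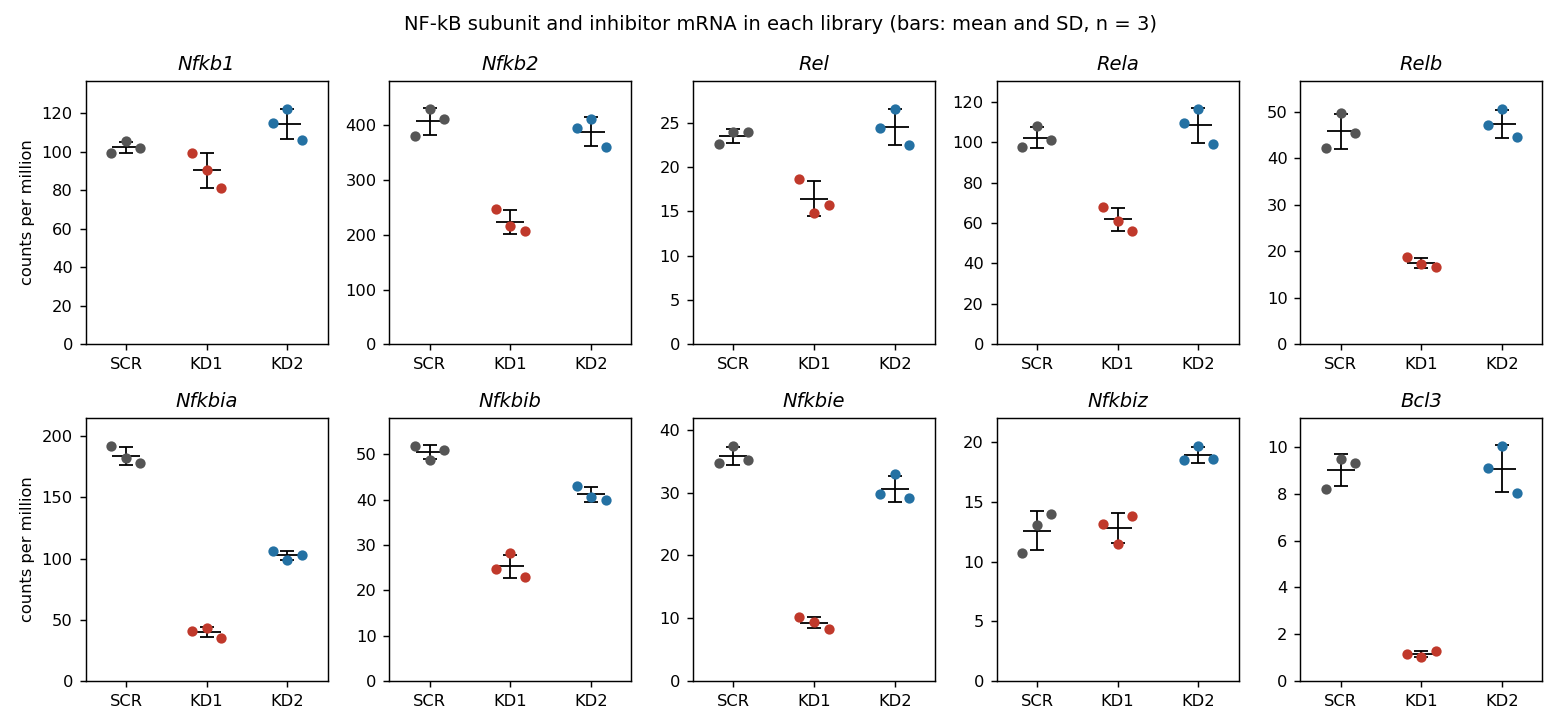
Level of each of the 10 genes in CPM (vertical axis, from 0) in the 3 libraries of SCR, shEya3_KD1 (KD1) and shEya3_KD2 (KD2); points are libraries, bars the mean and SD. The shEya3_KD1 libraries lie below every SCR library for 8 genes, Nfkb1 and Nfkbiz being the exceptions. Nfkbia, Nfkbib and Nfkbie are each ordered SCR, shEya3_KD2, shEya3_KD1 without overlap.

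The comparison of shEya3_KD1 with SCR addressed which of the genes changed where Eya3 was lowest. Of the 5 subunits, 4 fell and Nfkb1 did not pass the test. Relb, which pairs with p52 in the alternative branch of the pathway (mm10, chromosome 7, 19606217 to 19629438, minus strand), was at 42.1, 49.8 and 45.4 CPM in SCR and at 18.7, 17.2 and 16.5 CPM in shEya3_KD1. Each shEya3_KD1 library was below each SCR library. The log2 fold change was -1.39 ± 0.08 (SE), and edgeR's quasi-likelihood test gave an adjusted p (Benjamini-Hochberg, over all genes tested) of 2.04e-09.

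Nfkb2, which encodes the precursor p100 and its product p52 (chromosome 19, 46304320 to 46312385, plus strand), was at 381, 430 and 412 CPM in SCR and at 248, 217 and 207 CPM in shEya3_KD1. The groups did not overlap, and the log2 fold change was -0.87 ± 0.08. Nfkb2 shares 531 exon bases with the long non-coding RNA AC114539.1, which held 2260 counts in SCR and 956 in shEya3_KD1, and 299 with Psd, both on the opposite strand. Psd held 2697 counts in SCR and 1119 in shEya3_KD1, against 58235 and 26342 for Nfkb2, and the strand setting of the counting is not given in the sources used here. In shEya3_KD2 AC114539.1 held 1229 counts and Psd 1382, against 46644 for Nfkb2. These counts are sums over the libraries of a group and are not scaled for depth. Rela, the p65 subunit and main activator of the classical branch (chromosome 19, 5637483 to 5648130, plus strand), went from 97.8, 108 and 101 CPM to 67.9, 61.2 and 56.2 CPM, again without overlap (log2 fold change -0.73 ± 0.08).

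Rel, the c-Rel subunit best known from lymphocytes (chromosome 11, 23736847 to 23770970, minus strand), had 22.6, 24.0 and 24.0 CPM in SCR and 18.6, 14.9 and 15.8 CPM in shEya3_KD1. The log2 fold change was -0.52 ± 0.09, and the groups were separate. Nfkb1, which encodes the precursor p105 and its product p50 (chromosome 3, 135584655 to 135691547, minus strand), had 99.4, 105 and 102 CPM in SCR and 99.5, 90.5 and 81.2 CPM in shEya3_KD1. Here 1 shEya3_KD1 library lay among the SCR libraries. The log2 fold change was -0.18 (95% interval -0.35 to -0.012), with an adjusted p of 0.0709 in edgeR's test. Without shEya3_KD1 replicate 1 it was -0.25 with an adjusted p of 0.0157 in the same test. Nfkb1 also passed without shEya3_KD2 replicate 2 or 3 (0.0424 and 0.0452), libraries that enter only through the shared spread. The result thus lay near the threshold, and its call changed with the libraries used.

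All 3 cytoplasmic inhibitors fell in shEya3_KD1, with a median log2 fold change of -1.95, beside -0.73 over the 5 subunits, a difference that was not tested. Nfkbia encodes I-kappa-B alpha, the inhibitor that is destroyed and remade within a cycle of activation (chromosome 12, 55489410 to 55492647, minus strand). It was at 192, 182 and 178 CPM in SCR and at 40.6, 43.6 and 35.2 CPM in shEya3_KD1, which is 21.6% of the SCR mean. The log2 fold change was -2.21 ± 0.08 and the adjusted p in edgeR's test 7.26e-12. All libraries of the groups were far apart.

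Nfkbie, the inhibitor I-kappa-B epsilon (chromosome 17, 45555703 to 45563169, plus strand), was at 34.7, 37.4 and 35.2 CPM in SCR and at 10.1, 9.36 and 8.33 CPM in shEya3_KD1. The highest shEya3_KD1 library was well below the lowest SCR library, and the log2 fold change was -1.95 ± 0.08. Nfkbib, the inhibitor I-kappa-B beta (chromosome 7, 28758251 to 28767512, minus strand), was at 51.8, 48.7 and 51.0 CPM in SCR and at 24.6, 28.1 and 23.0 CPM in shEya3_KD1. The groups were again separate (log2 fold change -0.999 ± 0.08). Nfkbib shares 42 exon bases with Sirt2 on the opposite strand, which held 9835 counts in SCR against 7218 for Nfkbib, so reads of that stretch cannot be assigned with certainty. Sirt2 had 5780 counts in shEya3_KD1 and 7247 in shEya3_KD2, against 2986 and 4989 for Nfkbib, again as sums not scaled for depth.

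The nuclear relatives went separate ways. Bcl3, which binds pairs of p50 or p52 in the nucleus (chromosome 7, 19808462 to 19822770, minus strand), was at 8.22, 9.48 and 9.31 CPM in SCR and at 1.15, 1.01 and 1.30 CPM in shEya3_KD1, 12.8% of the SCR mean. The log2 fold change of -2.97 ± 0.14 was the widest of the 10 genes, with an adjusted p of 1.19e-10 in edgeR's test, and no library overlapped. Nfkbiz, which encodes the inducible nuclear co-activator I-kappa-B zeta (chromosome 16, 55811375 to 55838899, minus strand), was at 10.7, 13.1 and 13.9 CPM in SCR and at 13.1, 11.4 and 13.8 CPM in shEya3_KD1. These values overlapped, with a log2 fold change of 0.025 (95% interval -0.19 to 0.24).

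In all, 8 of the 10 genes fell and 0 rose with shEya3_KD1 in edgeR's test, where 26.2% of all genes tested fell, 24.1% rose and 50.3% changed in either direction (0 of the 10 also rose at an unadjusted p under 0.05 and with DESeq2). The median log2 fold change was -0.93 over the 10 genes and 0.014 over all genes tested. The libraries of the groups did not overlap for the same 8 genes, all lower, against 30.4% of all genes with every shEya3_KD1 library lower and 28.9% with every one higher.

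**Figure D2:**
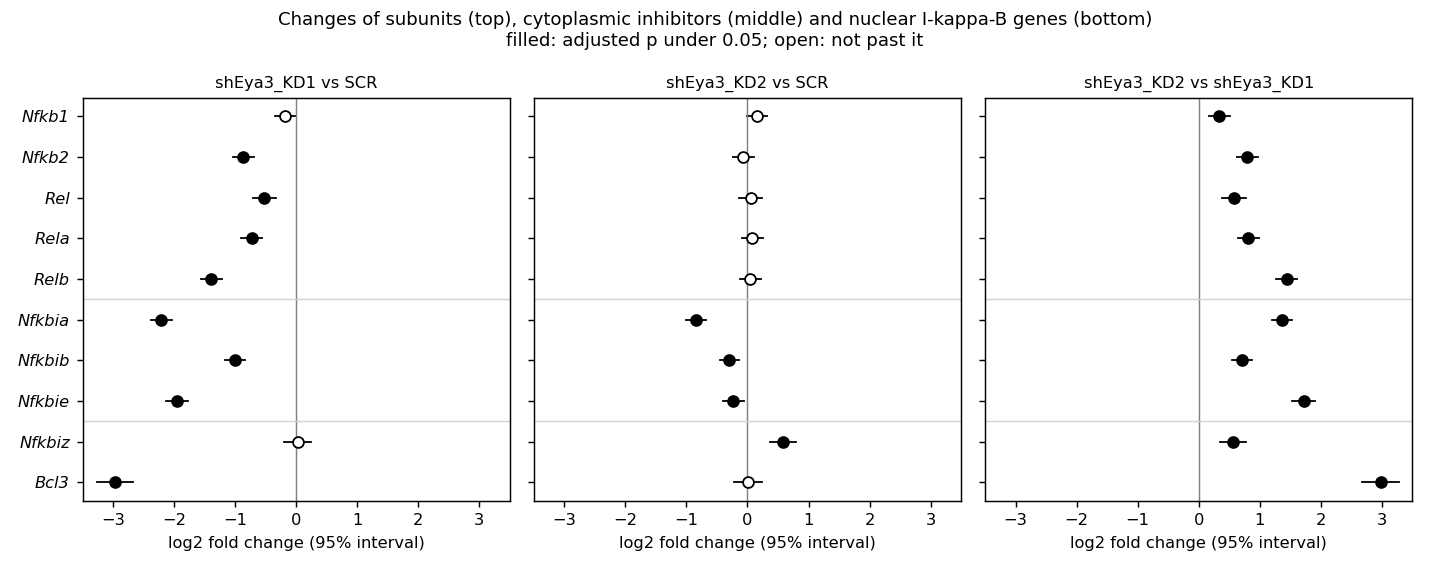
Log2 fold change of each gene (horizontal axis) with its 95% interval in the 3 comparisons; filled points have an adjusted p under 0.05 in edgeR's quasi-likelihood test and open points do not. With shEya3_KD1 the points spread from 0.025 (Nfkbiz) to -2.97 (Bcl3), and with shEya3_KD2 they lie between -0.84 (Nfkbia) and 0.59 (Nfkbiz).

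The comparison of shEya3_KD2 with SCR, which uses the same SCR libraries, addressed the same question where Eya3 was less reduced. Of the 5 subunits 0 passed edgeR's test (0 also at an unadjusted p under 0.05 and 0 with DESeq2). Nfkb2 was at 395, 411 and 360 CPM, Rela at 109, 116 and 99.2 CPM and Relb at 47.2, 50.6 and 44.5 CPM, each overlapping the SCR libraries. Their log2 fold changes were -0.068 (95% interval -0.24 to 0.10), 0.082 (-0.090 to 0.25) and 0.049 (-0.12 to 0.22). Rel, at 24.4, 26.5 and 22.5 CPM, had 0.054 (-0.14 to 0.24). Nfkb1, at 115, 122 and 106 CPM, lay above every SCR library but did not pass (0.16, -0.0061 to 0.33, adjusted p = 0.109 in edgeR's test). Without shEya3_KD2 replicate 3 Nfkb1 passed, at 0.21 with an adjusted p of 0.0375.

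The 3 cytoplasmic inhibitors fell with shEya3_KD2. Nfkbia was at 106, 98.8 and 103 CPM, 55.7% of the SCR mean, with a log2 fold change of -0.84 ± 0.08 and an adjusted p of 6.11e-07 in edgeR's test. Nfkbib was at 42.9, 40.7 and 39.8 CPM (log2 fold change -0.30 ± 0.08, adjusted p = 0.00512 in the same test). In both genes every shEya3_KD2 library lay below every SCR library. Nfkbie, at 29.7, 32.9 and 29.1 CPM, was also below each SCR library (-0.23 ± 0.08, adjusted p = 0.0269), but its call was lost when certain libraries were left out. Its adjusted p was 0.0951 without SCR replicate 2, 0.0566 without SCR replicate 3, 0.1003 without shEya3_KD2 replicate 1 and 0.0701 without shEya3_KD2 replicate 3.

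Nfkbiz rose with shEya3_KD2, to 18.5, 19.7 and 18.6 CPM, above all SCR libraries (a log2 fold change of 0.59 ± 0.10, for which edgeR's test gave an adjusted p of 0.000233). Bcl3, at 9.11, 10.0 and 8.05 CPM, overlapped SCR (0.0051, 95% interval -0.22 to 0.23), and the sign of that value changed with the scaling (-0.0072 with RLE size factors). Thus 3 of the 10 fell and 1 rose, where 22.3% of all genes tested fell, 22.97% rose and 45.3% changed in either direction. The groups did not overlap for 5 of the 10, the 3 inhibitors below SCR and Nfkb1 and Nfkbiz above, against 27.02% of all genes wholly below and 27.4% wholly above. The median over the 10 genes was 0.027 on the log2 scale, against -0.0044 over all genes tested.

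The direct comparison of shEya3_KD2 with shEya3_KD1 tested whether the hairpins differed. All 10 genes were higher in shEya3_KD2, with all 3 libraries above those of shEya3_KD1 in each, where 27.03% of all genes tested rose, 22.5% fell and 49.6% changed in either direction. Of all genes 29.5% had every shEya3_KD2 library above and 24.8% every one below. The differences ran from 0.34 ± 0.08 on the log2 scale for Nfkb1 (adjusted p = 0.00224 in edgeR's test) to 2.98 ± 0.14 for Bcl3 (2.05e-10). Among the subunits Relb differed by 1.44 ± 0.08, Rela by 0.81 ± 0.08, Nfkb2 by 0.80 ± 0.08 and Rel by 0.57 ± 0.09. Among the inhibitors Nfkbie differed by 1.72 ± 0.09, Nfkbia by 1.37 ± 0.08 and Nfkbib by 0.70 ± 0.08, and Nfkbiz by 0.56 ± 0.10. The median was 0.80 over the 10 genes and 0.0030 over all genes tested.

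Since inhibitors and subunits bind each other as proteins, their messenger RNAs were set side by side per length, as a description with no test. Nfkb1 and Nfkb2 were counted as subunits only. Their messenger RNA does not tell the precursors p105 and p100 from the products p50 and p52. The ratio below is thus one of the listed genes and not of inhibiting to active protein. The 3 cytoplasmic inhibitors summed to 149 ± 4.70 CPM per kilobase in SCR and the 5 subunits to 146 ± 8.26. Nfkbia alone gave 114 of the inhibitor sum and Nfkb2 alone 88.9 of the subunit sum, so the ratio below mostly weighs this pair. In shEya3_KD1 the sums were 39.4 ± 3.99 and 83.1 ± 7.79, and in shEya3_KD2 92.7 ± 2.56 and 145 ± 10.2. The ratio of inhibitor to subunit messenger RNA was 1.13, 0.963 and 0.996 in the SCR libraries, 0.435, 0.532 and 0.460 in shEya3_KD1, and 0.652, 0.589 and 0.684 in shEya3_KD2. The 3 groups were separate in this ratio, with SCR highest and shEya3_KD1 lowest. With the longest transcript as the length the means were 0.828, 0.369 and 0.512 in the same order of groups. These are messenger RNAs, and protein levels were not measured.

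**Figure D3:**
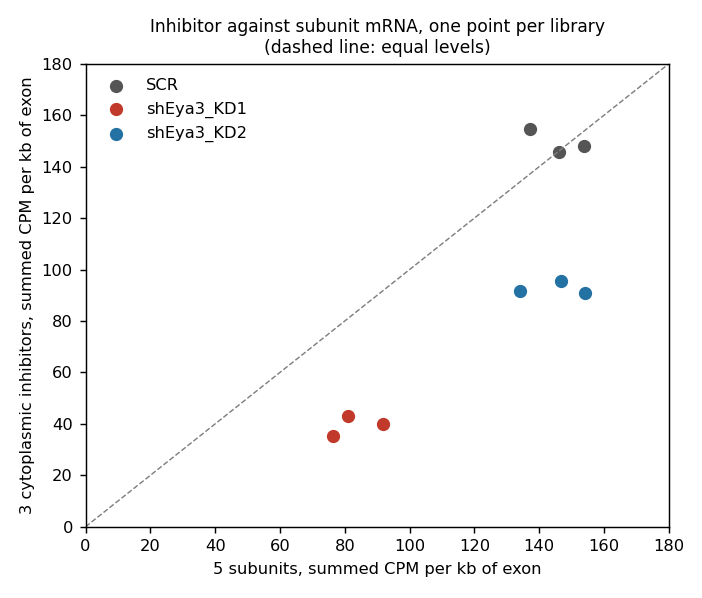
Summed level of the 3 cytoplasmic inhibitors (vertical axis) against that of the 5 subunits (horizontal axis), both in CPM per kilobase of exon, with 1 point per library and a dashed line where both are equal. The SCR points lie at the line (ratio 0.963 to 1.13), the shEya3_KD2 points at a like subunit level but lower inhibitor level (0.589 to 0.684), and the shEya3_KD1 points lower on both axes (0.435 to 0.532).

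How alike the genes were was measured over the 9 libraries, as the root mean square difference in log2 CPM after each gene was centred on its own mean. Nfkb2 and Rela were nearest to each other among the 10 (0.0714). Genes outside the 10 lay nearer still, such as Stk10 to Nfkb2 (0.0434) and Clip2 to Rela (0.0375). Relb was nearest to Nfkbie (0.233), and Bcl3 stood farthest from the rest, with Nfkbie as its nearest at 0.543. Among 10421 other protein-coding genes at 1 CPM or more, Gng2, a G protein gamma subunit, was nearest to Nfkbia (0.0699), with 22.8 ± 0.394, 4.93 ± 0.198 and 12.5 ± 0.577 CPM in SCR, shEya3_KD1 and shEya3_KD2. The protein kinase gene Pak1 was nearest to Nfkbie (0.0843), Plcb3, a phospholipase C, to Relb (0.0559), and Bche, butyrylcholinesterase, to Bcl3 (0.174). These distances describe profiles over 9 libraries in 3 groups.

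The rest of the pathway was described by lists of textbook members, whose counts are to be read against the 50.3% of all genes tested that changed with shEya3_KD1 (26.2% fell, 24.1% rose) and the 45.3% that changed with shEya3_KD2 (22.3% fell, 22.97% rose). The lists were chosen with earlier results of these data known, so these shares give a scale for the counts and no test of them. Of 7 further I-kappa-B and repressor genes, 3 fell and 3 rose with shEya3_KD1, and 3 fell and 2 rose with shEya3_KD2. Nfkbid, a further nuclear I-kappa-B protein, went from 12.9 ± 0.300 CPM in SCR to 4.04 ± 0.187 CPM in shEya3_KD1 and 8.95 ± 0.997 CPM in shEya3_KD2 (log2 fold changes -1.68 ± 0.10 and -0.52 ± 0.09). Nkiras1, a small GTPase relative that binds inhibitors, fell by 0.48 and 0.46 on the log2 scale. Nkrf, a repressor that binds DNA, rose by 0.26 ± 0.07 and 0.19 ± 0.07.

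The kinase complex marks the inhibitors for destruction. Of 19 genes of the I-kappa-B kinase (IKK) complex and its activators, 8 fell and 6 rose with shEya3_KD1 (median log2 fold change -0.033), and 3 fell and 11 rose with shEya3_KD2 (median 0.21). Ikbkg, the regulatory subunit NEMO, rose from 34.9 ± 0.918 CPM to 57.8 ± 1.19 and 105 ± 4.49 CPM. Malt1, a scaffold protease, rose by 0.58 and 0.52 on the log2 scale. Card10, the scaffold that links receptors to Bcl10 and Malt1 outside the immune system, was at 50.3 ± 4.14 CPM in SCR and fell with both hairpins, to a mean of 2.85 ± 0.262 CPM in shEya3_KD1 and 38.4 ± 3.73 CPM in shEya3_KD2 (log2 fold changes -4.14 ± 0.11 and -0.39 ± 0.09). All 5 genes of the IKK-related kinases and their adaptors fell with shEya3_KD1 (median -0.59), among them Ikbke, from 16.1 ± 2.28 to 8.66 ± 0.689 CPM, and Tank by 0.59 on the log2 scale. The call of Tbkbp1 was borderline (adjusted p = 0.0480 in edgeR's test). Its level was low, at 0.577 CPM in SCR and 0.272 CPM in shEya3_KD1, and its libraries overlapped. With shEya3_KD2 1 of the 5 rose, Azi2 (0.29 ± 0.07).

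Among 12 measured TRAF, cIAP and linear ubiquitin genes 8 fell and 1 rose with shEya3_KD1 (median -0.35), and 4 fell and 5 rose with shEya3_KD2 (median 0.077). Traf1 and Traf5, adaptors of TNF family receptors, fell by 3.93 and 1.48 on the log2 scale with shEya3_KD1. Traf3, which holds back the alternative branch, went opposite ways, from 61.4 ± 5.84 CPM in SCR down to 37.4 ± 3.92 CPM with shEya3_KD1 (log2 fold change -0.72 ± 0.10) and up to 114 ± 11.2 CPM with shEya3_KD2 (0.89 ± 0.09). Rnf31, the catalytic subunit of the linear ubiquitin ligase, likewise fell from 53.5 ± 5.93 to 40.6 ± 4.83 CPM with shEya3_KD1 and rose to 79.9 ± 9.94 CPM with shEya3_KD2. Of 12 measured deubiquitinases and other brakes 7 fell and 1 rose with shEya3_KD1 (median -0.58). Tnfaip3, the ubiquitin-editing enzyme A20, fell from 46.1 ± 2.69 to 17.6 ± 1.30 CPM, and Rnf11, a partner of A20, from 195 ± 6.16 to 72.5 ± 1.27 CPM. With shEya3_KD2 3 fell and 3 rose, and the widest was Usp18, also known as an interferon-induced gene, at 98.0 ± 24.3 CPM against 19.9 ± 1.17 CPM in SCR. With shEya3_KD1 Usp18 fell, to 8.38 ± 0.693 CPM (log2 fold change -1.24 ± 0.16).

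Of 12 nuclear co-factors of NF-kB, 2 fell and 3 rose with each hairpin against SCR (median 0.090 and 0.21 on the log2 scale), 5 of 12 where 50.3% and 45.3% of all genes changed, so their share called was no higher than that of all genes. Of 38 textbook target genes 28 could be tested, and this list shares Tnfaip3, Tnip1, Traf1, Birc3 and Zc3h12a with the lists above. With shEya3_KD1 24 fell and 1 rose (median log2 fold change -1.39), and with shEya3_KD2 15 fell and 7 rose (median -0.33). Ccl2, a chemokine that attracts monocytes, was at 113 ± 5.06 CPM in SCR and fell to 0.493 ± 0.163 CPM with shEya3_KD1 and 28.2 ± 1.88 CPM with shEya3_KD2 (log2 fold changes -7.81 ± 0.13 and -2.00 ± 0.08). The related chemokine Ccl7 fell from 6.09 ± 0.277 CPM to 0.0328 ± 0.0383 and 0.517 ± 0.206 CPM. Mmp9, a matrix metalloproteinase, fell from 15.2 ± 1.17 CPM to 0.521 ± 0.0774 and 5.67 ± 0.272 CPM. The gene that rose with shEya3_KD1 was Bcl2l1, an inhibitor of cell death (0.20 ± 0.06). Cxcl10, a chemokine that interferon also induces, fell from 12.9 ± 1.66 to 4.93 ± 0.271 CPM with shEya3_KD1 and rose to 50.5 ± 5.63 CPM with shEya3_KD2. Tnfaip2 fell from 172 ± 2.76 to 154 ± 3.69 CPM with shEya3_KD1 and rose to 396 ± 7.63 CPM with shEya3_KD2. Icam1, Il6, Tnf and Birc3, targets that respond strongly in other cells, were among the 10 too low to test, with 75, 22, 4 and 18 counts over all 9 libraries.

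**Figure D4:**
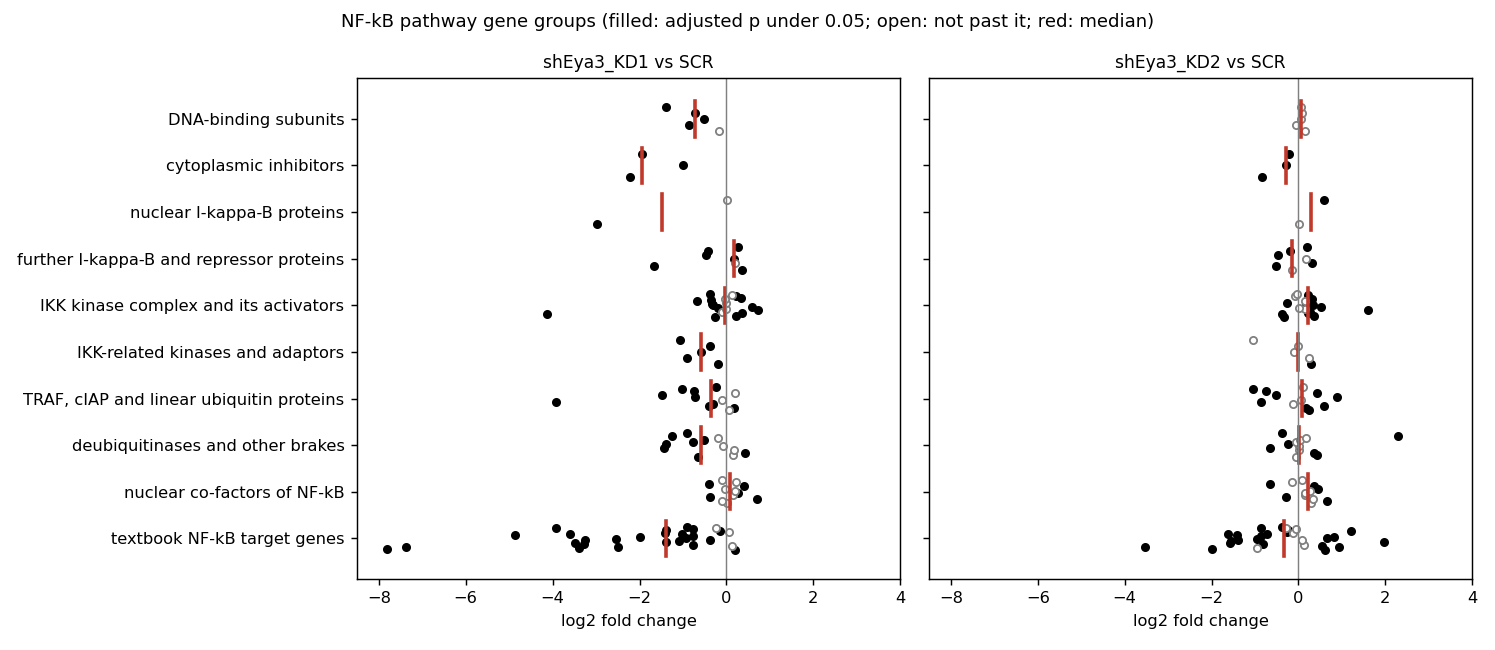
Log2 fold change (horizontal axis) of each tested gene in the 3 groups of members and 7 further pathway lists, for shEya3_KD1 against SCR and shEya3_KD2 against SCR; filled points have an adjusted p under 0.05, open points do not, and red lines are medians. With shEya3_KD1 the medians of the cytoplasmic inhibitors (-1.95) and of the target genes (-1.39) lie left of that of the IKK complex list (-0.033).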

How the data were processed

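Messenger RNA of cultured 66cl4 cells was sequenced after library preparation with a NuGEN kit, per the labels' protocols. The submitters' processing notes name FastQC, MultiQC, STAR and mm10 with no version. Which counting tool, annotation and strand setting were applied is not given in the sources used here. Values are whole-number read counts for each gene symbol, as the authors deposited them. Titles gave groups and replicate numbers.

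The analysis used R 4.3.3 and edgeR 4.0.16: filterByExpr, TMM scaling, and 1 robust quasi-likelihood fit of all 9 libraries with group as the only term, with Benjamini-Hochberg adjustment over 15914 genes and a threshold of 0.05. Standard errors came from the fold change and its F statistic. The script was tested on simulated data in which far fewer genes changed than were called here. That run therefore does not show how the fit behaves at this extent of change. With 3 against 3 an exact permutation test cannot go below 0.1. Lengths and positions are from GENCODE M21 (mm10). Replicates of a group differed by more than counting noise (chi-square divided by its degrees of freedom, 9.24 to 45.2). Same-numbered libraries did not all deviate together (correlations -0.11 to 0.20), so no block was used. Alternatives were RLE factors, DESeq2 1.42.0, other filters, fits of 2 groups alone, replicate number as a block, and leaving out each library. The naming rule took the 10 members, Eya3, up to 2 rising and 2 falling genes per list and comparison at 1 CPM without overlap of groups, and the nearest genes by profile. Members and lists were chosen with earlier results of these data known. Icam1, Il6, Tnf, Birc3, Tbkbp1 and the marker and overlapping genes were named after their values were seen. The values of 1 co-factor gene that the naming rule took are not reported here.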

Additional observations from a re-analysis of the deposited data

How the results depend on the processing

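Over 6 other settings and 9 fits with a library left out, the counts of members called kept within 1.5 times of the reported ones with 1 exception. Leaving out each library in turn gave 8 to 9 falling members with shEya3_KD1 and 2 to 3 falling and 1 to 2 rising with shEya3_KD2; the count of 2 rising came without shEya3_KD2 replicate 3, where Nfkb1 joined Nfkbiz. All 10 were higher in shEya3_KD2 than in shEya3_KD1 in each of these fits. With the replicate block, shEya3_KD1 had 9 falling members, since Nfkb1 passed at an adjusted p of 0.0497 in edgeR's test, and with only the groups compared it passed at 0.0455; the block changed no other call, and the libraries share only a number. Signs changed only for values that were called in no fit. Bcl3 with shEya3_KD2 was at -0.0072 with RLE size factors, -0.0069 with DESeq2, -0.030 with a filter of 5 CPM and -0.064 to 0.085 with libraries left out. With libraries left out Nfkbiz with shEya3_KD1 ranged from -0.079 to 0.094, Rel with shEya3_KD2 from -0.0018 to 0.11 and Relb from -0.0079 to 0.11. The share of Nfkb2 among the subunits depended on the length used: without length correction it was 59.8%, 54.6% and 56.9% in SCR, shEya3_KD1 and shEya3_KD2, and with the longest transcript 57.1%, 52.8% and 54.3%. The alternatives for the inhibitor to subunit ratio were chosen after seeing the data; without length correction it was 0.398, 0.182 and 0.256, in the same order of groups.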

Other observations

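Within shEya3_KD2, replicates 2 and 3 differed more in their counts than any other replicate pair (chi-square divided by its degrees of freedom, 45.2). Replicate 2, the library with the fewest counts (27758862), was the highest of its group for 8 of the 10 genes: the 5 subunits, Nfkbie, Nfkbiz and Bcl3. For Nfkbia it was the lowest, at 98.8 CPM against 106 and 103 CPM, so its inhibitor to subunit ratio was the lowest of the group (0.589). Usp18, which interferon induces, ranged from 78.1 to 125 CPM over the same 3 libraries. Within shEya3_KD1 replicate 1 was the highest for all 5 subunits and Nfkbie, while replicate 2 was the highest for Nfkbia and Nfkbib. In SCR replicate 1 was the lowest for 8 of the 10 genes, the exceptions being Nfkbia and Nfkbib, for which it was the highest. In none of the 3 groups did the library highest for Nfkbia also lead for Rela, Nfkb2 or Relb. These are orders among 3 libraries, given with no test. How many of all genes share each order was not counted, so the orders cannot be read as particular to the 10 genes.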
